A study of Mus musculus with 9 samples.

Results

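The unfolded protein response and the integrated stress response are described here through 39 genes, taken by gene symbol from the pathways' known sensors, transcription factors, chaperones and target enzymes. All 39 symbols were found among the 21878 symbols of the deposited count table. The study profiled 9 RNA sequencing libraries in 3 groups of 3: Atp7b knockout cells (ATP7B-/-) transduced with ATP7B (KO-ATP7B), the same knockout cells transduced with GFP (KO-GFP) and wild-type cells transduced with GFP (WT-GFP), in each case by lentivirus, all on the C57BL/6 background. Atp7b encodes the copper-exporting ATPase that is lost in Wilson disease. Every group held primary mouse hepatocytes that had been reprogrammed to liver progenitors with growth factors and small molecules, transduced, redifferentiated for 3 weeks and then exposed to 100 µM copper chloride for 24 hours. The treatment field of the labels gives the same figure in mM.

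Values are given for 2 libraries, WT-GFP replicates 1 and 2. Of the 9 count columns, which carry numbers and no group name, 7 could not be tied to a sample by name and were not used. Genotypes and vectors are therefore not compared, and no cells free of added copper were analysed here, so no level below shows that a stress response was switched on. The labels do not say if the 2 replicates are separate cultures or animals, so their spread may be technical.

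When unfolded proteins accumulate in the endoplasmic reticulum (ER), the membrane sensors IRE1, PERK and ATF6 raise the folding and degradation capacity of that compartment. PERK also phosphorylates the translation factor eIF2, as do kinases that sense amino acid shortage, viral RNA or heme shortage. That convergence is called the integrated stress response, and it favours translation of ATF4, which drives genes of amino acid supply and of feedback control. Hepatocytes secrete most plasma proteins and carry a large ER, so many of these genes are also part of their ordinary secretory machinery.

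The promoters of the members carried short sequences linked to these pathways. The members were chosen by symbol and not by sequence, but as known genes of the same pathways. The shares below are therefore no independent test. The sequences are shown for the members that hold them. Only Herpud1 held elements of both ER stress and the ATF4 branch. Each kind was in a minority of members, so little overlap was to be expected, and this is not read as a separation of the branches. Most members with a window held neither. RefSeq promoter windows on GRCm38.p6, from 250 bases before to 50 bases after the transcription start, were found for 36 of the 39 members and not for Atf6, Hyou1 and Manf. The ER stress response element (ERSE), which ATF6 and the CCAAT-binding factor NF-Y recognise, was searched as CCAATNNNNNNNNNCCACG on both strands. It was present in the windows of 8 of 36 members (22.2%), against 28 of the 16275 symbols with a window (0.172%). Those 8 members make up 28.6% of all symbols with an exact match. The capitals below mark the fixed letters of the motif, each line being read on the strand that carries it.
Hspa5: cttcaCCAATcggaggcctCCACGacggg
Calr: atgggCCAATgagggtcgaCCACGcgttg
Hsp90b1, far site: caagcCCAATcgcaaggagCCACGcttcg
Hsp90b1, near site: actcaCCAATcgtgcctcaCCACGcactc
Canx: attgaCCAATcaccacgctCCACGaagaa
Pdia6: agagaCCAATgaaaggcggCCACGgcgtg
Dnajc3: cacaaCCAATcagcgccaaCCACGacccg
Creld2: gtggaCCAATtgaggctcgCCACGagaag
Syvn1: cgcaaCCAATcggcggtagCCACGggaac

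The Hspa5 stretch lies at chr2:34772020-34772048 on the plus strand, and its motif begins 65 bases before the RefSeq start of the gene. GENCODE starts Hspa5 at 34771970, upstream of this stretch. The Calr stretch is at chr8:84847070-84847098 (plus strand, opposite to the gene). The pair in Hsp90b1 is at chr10:86705633-86705661 (minus strand) and chr10:86705528-86705556 (plus strand), and the motifs begin 212 and 107 bases upstream. The Canx stretch is at chr11:50325795-50325823 (minus strand), that of Pdia6 at chr12:17266486-17266514 (plus strand) and that of Dnajc3 at chr14:118937822-118937850 (plus strand). Creld2 has its match at chr15:88819515-88819543 (minus strand) and Syvn1 at chr19:6046527-6046555 (plus strand). Of the 8 genes, 7 encode chaperones or folding enzymes of the ER or their partners, and Syvn1 encodes a ubiquitin ligase of ER-associated degradation.

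The C/EBP-ATF response element (CARE), which ATF4 and its partners recognise, was searched as TGATGNAA on both strands. It was found in the windows of 6 of 36 members (16.7%), against 654 of 16275 symbols (4.02%).
Atf3: cttggTGATGcAAgtgcg
Nupr1: ctgtcTGATGcAAtctgg
Trib3: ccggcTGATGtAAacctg
Chac1: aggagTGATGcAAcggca
Asns: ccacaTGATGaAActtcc
Herpud1: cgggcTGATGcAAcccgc
Capitals again mark the fixed letters. The stretches are at chr1:191183431-191183448 (plus strand) for Atf3, chr7:126625568-126625585 (plus strand) for Nupr1, chr2:152344034-152344051 (plus strand) for Trib3 and chr2:119351044-119351061 (minus strand) for Chac1. Those of Asns and Herpud1 are at chr6:7693220-7693237 and chr8:94386312-94386329, both on the minus strand. The Trib3 match lies just after the RefSeq start and before the GENCODE start at 152344032 of this minus-strand gene. The Asns match lies before the RefSeq start, but past the GENCODE start at 7693254 of that minus-strand gene.

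Herpud1 was the one member with matches to both branches. Its window also held the related ERSE-II, searched as ATTGGNCCACG on both strands, at chr8:94386372-94386392 on the plus strand.
Herpud1, ERSE-II: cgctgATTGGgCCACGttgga
ERSE-II was present in 1 of 36 member windows, against 9 of 16275 (0.0553%). The XBP1 core site TGACGTGG, searched on both strands, was in 0 of 36 member windows and in 142 of 16275 (0.873%). In Herpud1 the letters of CARE and ERSE-II do not overlap, and no member window held both a CARE and an exact ERSE. The absence of a match says only that these letters are not in this window, and a match is not evidence that a factor bound there. The windows follow RefSeq starts, and GENCODE places the outermost start of Atf3, Mthfd2, Nupr1, Slc3a2 and Psat1 at 5391 to 34706 bases from the start used here.

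**Figure D1:**
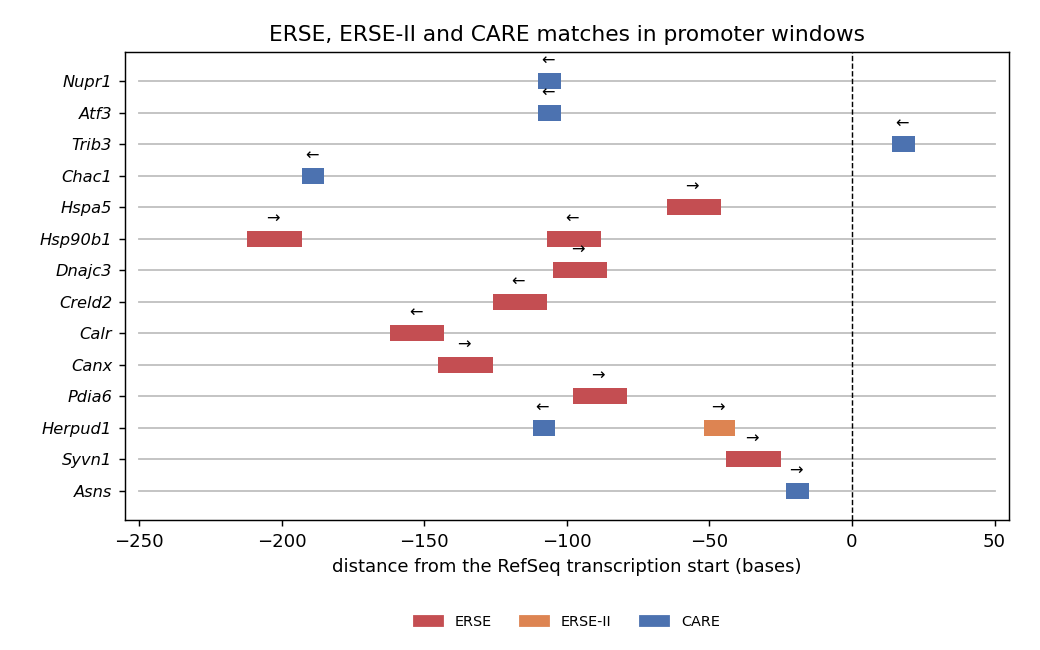
Positions of exact motif matches in the promoter windows of the 14 members that hold one, with distance from the RefSeq transcription start in bases on the horizontal axis. Red bars are ERSE, orange ERSE-II and blue CARE, and arrows give the motif's direction relative to the gene. ERSE matches start between 212 and 44 bases upstream, Hsp90b1 holds 2 of them, and only the CARE of Trib3 lies past the RefSeq start.

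All 39 genes were expressed in both libraries. Levels are the deposited FPKM, counts scaled for library size and gene length, which allow genes of different length to be compared. Each member reached at least 10 FPKM in both libraries, a level that 38.1% of the 15545 symbols with a count reached on average. At 100 FPKM or more stood 14 members (35.9%), against 4.12% of symbols with a count. The median over members was 55.8 FPKM (56.1 in replicate 1 and 59.7 in replicate 2), against 5.66 FPKM over all symbols with a count. With exon lengths from GENCODE in place of the deposited ones the members' median was 43.6 FPKM, and 37 members stayed at 10 FPKM or more. Together the 39 genes took 233461 of 18532457 counts in replicate 1 (1.26%) and 224069 of 17821682 in replicate 2 (1.26%). Single members had between 598 and 23613 counts per library, and for 34 of them the SD over the 2 libraries was below 10% of the mean. The share of equally abundant genes below that limit was not counted, so it is not read as a trait of the members. In RNA from a whole culture, fewer cells of a type and less RNA per cell cannot be told apart.

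The cells carried hepatocyte transcripts unevenly, as a check on the labelled cell type. Albumin (Alb) stood at 929.6 ± 33.4 FPKM (SD, n = 2 here and below) and 7 of 10 hepatocyte markers reached 10 FPKM, whereas the urea cycle enzyme gene Cps1 was at 1.21 ± 0.00146 FPKM and Asgr1 had 9 and 4 counts. Progenitor and biliary markers were present as well, with 5 of 6 at 10 FPKM or more. Their median was 181 FPKM, against 200 FPKM for the hepatocyte markers. Cd24a (649 FPKM), Spp1 (604 FPKM) and Krt19 (344 FPKM) were high. Sox9 (17.5 FPKM), Krt7 (10.4 FPKM) and Epcam (2.04 FPKM) were low, and with GENCODE exon lengths Krt7 came to 2.34 FPKM. None of 5 endothelial, 5 stellate or 4 lymphocyte markers reached 1 FPKM. Among 5 macrophage markers Cd68 was at 17.1 ± 3.34 FPKM and Csf1r at 2.15 ± 0.249 FPKM, while Adgre1 and Clec4f were at 0 counts, a result that leaves room for up to 0.162 CPM (counts scaled to library size) in replicate 1 and 0.168 CPM in replicate 2. The part of these other markers in the levels below was not tested. Atp7b itself had 979 and 784 counts, or 7.70 and 6.41 FPKM.

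**Figure D2:**
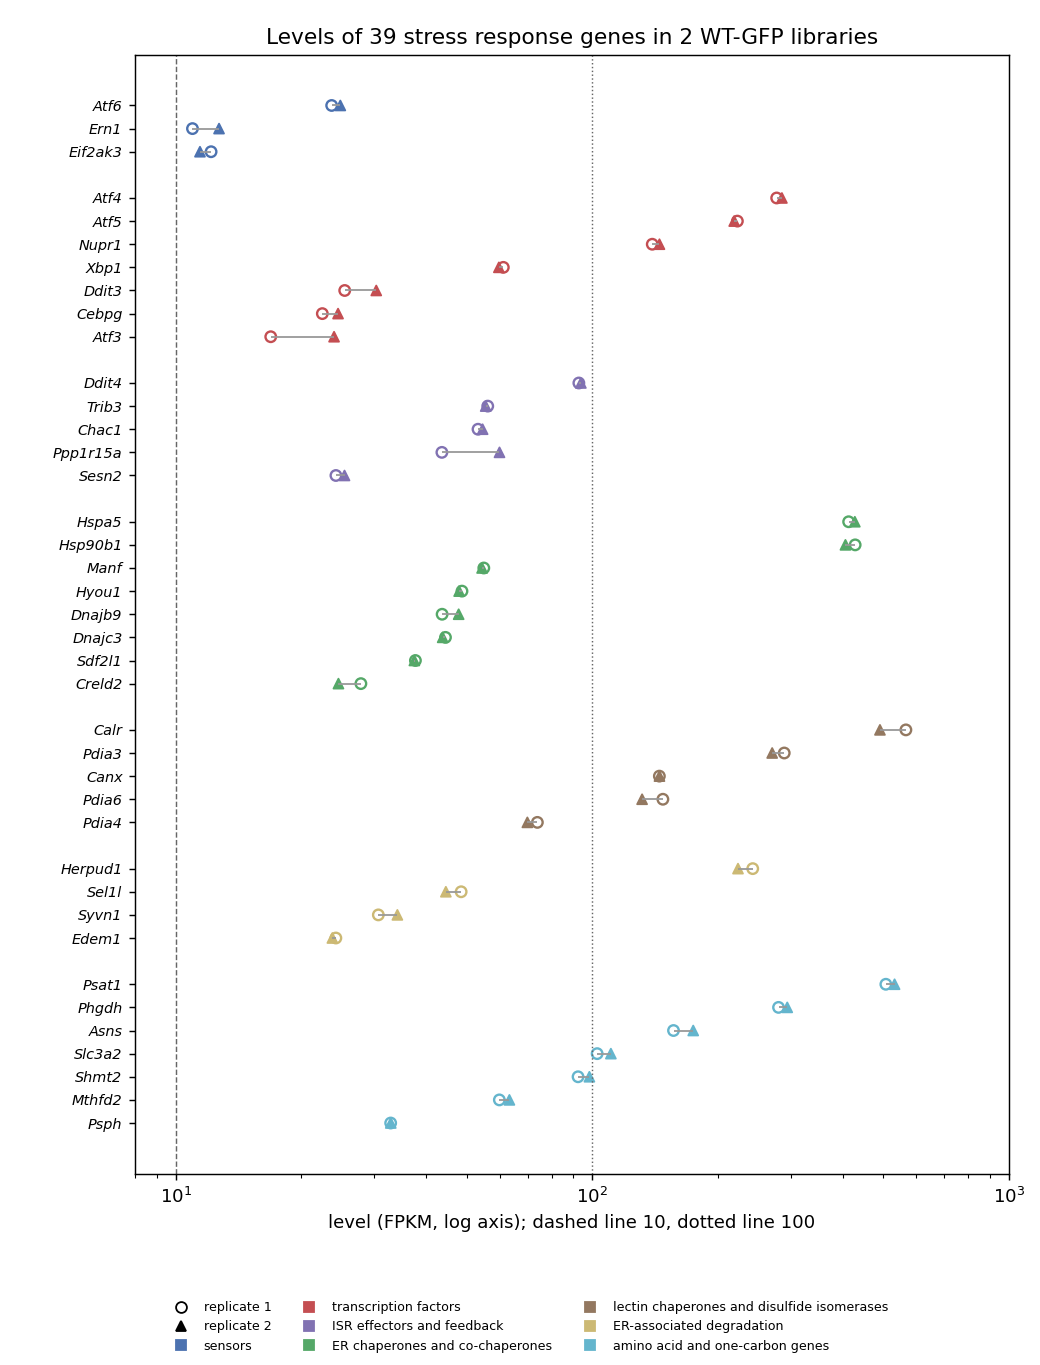
Level of each of the 39 genes in FPKM on a log axis, ordered by role and by mean level within a role. Open circles are WT-GFP replicate 1, filled triangles replicate 2, and the grey line joins them. Every point lies right of the dashed line at 10 FPKM, the sensors Ern1 and Eif2ak3 lie lowest, and Atf3 and Ppp1r15a show the widest gap between libraries.

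The 3 membrane sensors were the least expressed role, with a median of 11.8 FPKM. Eif2ak3, which encodes the kinase PERK, was lowest of all 39 members at 12.2 FPKM in replicate 1 and 11.4 FPKM in replicate 2. Ern1, which encodes the kinase and ribonuclease IRE1, was at 11.0 FPKM in replicate 1 and 12.7 FPKM in replicate 2. The ranges of these 2 genes overlap, so their order is not resolved. With GENCODE exon lengths both were below 10 FPKM, Ern1 at 5.76 and Eif2ak3 at 9.54 FPKM. Atf6, whose protein is cut in the Golgi to release a transcription factor, was at 23.7 FPKM in replicate 1 and 24.9 FPKM in replicate 2, above the other sensors in both libraries.

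Among the transcription factors, Atf4 and Atf5 were the highest and Atf3 the lowest. Atf4, the central factor of the integrated stress response (chromosome 15, 80255184 to 80257541, plus strand, GRCm38; positions of genes are GENCODE's, and all members named with one are protein-coding), was at 277 FPKM in replicate 1 and 285 FPKM in replicate 2. Its protein is controlled largely by translation through upstream reading frames, which a transcript level does not show. Atf5, a relative under similar translational control, was at 223 FPKM in replicate 1 and 219 FPKM in replicate 2, below Atf4 in both.
Nupr1, a small stress-induced chromatin protein, was at 139 and 145 FPKM in replicates 1 and 2. It is the member whose level depends most on the gene model: the deposited value implies a length of 626 bases, GENCODE exons sum to 2514 bases, and with the latter its mean was 35.4 FPKM.

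Xbp1, whose transcript IRE1 splices into the form that encodes the active factor (chromosome 11, 5520659 to 5525893, plus strand), was at 61.2 and 59.7 FPKM in replicates 1 and 2. Counts per gene do not separate spliced from unspliced Xbp1. Ddit3, which encodes the pro-apoptotic factor CHOP (chromosome 10, 127290774 to 127296288, plus strand), was at 25.5 FPKM in replicate 1 and 30.3 FPKM in replicate 2. The mean of Ddit3 was 43.6 FPKM with GENCODE exon lengths, and Mars, a tRNA synthetase gene, overlaps it on the opposite strand. Cebpg, a dimerisation partner of ATF4, averaged 23.5 ± 1.44 FPKM. Atf3, a stress-inducible factor with repressor activity, was at 16.9 FPKM in replicate 1 and 24.0 FPKM in replicate 2.

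Effectors and feedback genes of the integrated stress response lay in the middle of the range, with a median of 53.9 FPKM. Trib3, a pseudokinase that restrains ATF4 and CHOP, was at 56.1 and 55.5 FPKM in replicates 1 and 2. Chac1, which degrades glutathione, was at 53.2 and 54.6 FPKM. These 2 classical CHOP and ATF4 targets thus stood above Ddit3 and below Atf4 in both libraries.
Ppp1r15a (GADD34), the phosphatase subunit that reverses eIF2 phosphorylation, was at 43.6 FPKM in replicate 1 and 59.9 FPKM in replicate 2. Ddit4 (REDD1), an inhibitor of the growth kinase mTORC1, was the highest of the role at 93.4 ± 0.736 FPKM, and Sesn2, another mTORC1 inhibitor, the lowest at 24.8 ± 0.833 FPKM.

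The ER chaperones split into a high pair and 6 genes at a lower level. Hspa5, which encodes BiP, the ER Hsp70 that also keeps the sensors inactive (chromosome 2, 34771970 to 34777547, plus strand), was at 413 FPKM in replicate 1 and 427 FPKM in replicate 2. Hsp90b1, the ER Hsp90 known as GRP94 (chromosome 10, 86690209 to 86705509, minus strand), was at 428 FPKM in replicate 1 and 405 FPKM in replicate 2. The order of these 2 genes turned between the libraries, and their means of 419.8 and 417 FPKM differed by less than either SD (10.2 and 15.8).
The other 6 averaged between 26.2 and 54.7 FPKM. Among partners of BiP, the exchange factor gene Hyou1 was at 48.3 ± 0.538 FPKM, the co-chaperone genes Dnajb9 and Dnajc3 at 45.7 ± 2.95 and 44.1 ± 0.482 FPKM, and Sdf2l1, which forms a complex with ER co-chaperones, at 37.5 ± 0.156 FPKM. Manf, a secreted ER protein that protects stressed cells, was at 54.7 ± 0.375 FPKM, and Creld2, an ER disulfide isomerase, at 26.2 ± 2.30 FPKM. Manf came to 34.2 and Hyou1 to 31.9 FPKM with GENCODE exon lengths.

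Lectin chaperones and disulfide isomerases had the highest median of the 7 roles on the deposited lengths, 145 FPKM. On GENCODE lengths it was 133 FPKM, below the 137 FPKM of the amino acid and one-carbon genes. Calr, the soluble calcium-binding lectin calreticulin (chromosome 8, 84841850 to 84846934, minus strand), was the most highly expressed of all 39 members on average, at 566 FPKM in replicate 1 and 491 FPKM in replicate 2. Canx, its membrane-bound counterpart calnexin, was at 145 FPKM in each library. Pdia3 (ERp57), the isomerase that works with both lectins, was at 289 FPKM in replicate 1 and 270.4 FPKM in replicate 2, between calreticulin and calnexin in both.
Pdia6 averaged 139.8 ± 11.3 FPKM (79.3 FPKM on GENCODE exons), and Pdia4 averaged 71.9 ± 2.81 FPKM (91.0 FPKM on GENCODE exons). The order of Pdia6 and Pdia4 thus depends on the gene model. Both encode isomerases found in complexes with BiP.

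Of the genes of ER-associated degradation, which returns misfolded proteins to the cytosol, Herpud1 stood far above the others. Herpud1, a short-lived organiser of the degradation complex (chromosome 8, 94386438 to 94395377, plus strand), was at 243 FPKM in replicate 1 and 224 FPKM in replicate 2. The ubiquitin ligase Syvn1 (HRD1) was at 30.7 and 34.1 FPKM in replicates 1 and 2, and its partner Sel1l at 48.5 and 44.5 FPKM. Edem1, which hands glycoproteins to this pathway, averaged 24.0 ± 0.329 FPKM. Members with an ERSE lay on both sides of Herpud1, the member with CARE and ERSE-II together. Calr, Hspa5 and Hsp90b1 were above it in both libraries, and Canx, Pdia6, Dnajc3, Creld2 and Syvn1 below it.

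Genes of amino acid and one-carbon supply included some of the highest values. Psat1, the serine synthesis transaminase (chromosome 19, 15904678 to 15947337, minus strand), was at 507 FPKM in replicate 1 and 532 FPKM in replicate 2. Its range lies inside that of Calr, so the order of the 2 highest members is not resolved, and with GENCODE exon lengths Psat1 was at 304 and Calr at 356 FPKM. Phgdh, which catalyses the first step of serine synthesis, was at 280.1 and 294 FPKM in replicates 1 and 2. Psph, which catalyses the last step, was at 32.8 FPKM in each library.
The 3 enzymes of 1 short pathway therefore differed widely in transcript level, with Psph far below the others in both libraries. Asns, asparagine synthetase (chromosome 6, 7675169 to 7693254, minus strand), was at 157 FPKM in replicate 1 and 175 FPKM in replicate 2. Slc3a2, the heavy chain of amino acid exchangers, averaged 107 ± 5.73 FPKM, or 183 FPKM with GENCODE exon lengths. The mitochondrial folate enzyme genes Shmt2 and Mthfd2 averaged 95.5 ± 4.23 and 61.6 ± 2.42 FPKM.

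Grouped by promoter sequence, the 8 members with an ERSE averaged between 26.2 and 528 FPKM with a median of 142 FPKM, and 5 of them stood at 100 FPKM or more. The 6 with a CARE averaged between 20.5 and 233 FPKM with a median of 99.0 FPKM, and 3 stood at 100 FPKM or more. With GENCODE exon lengths the medians were 106 FPKM for members with an ERSE and 52.8 FPKM for those with a CARE, and 4 members with an ERSE and 2 with a CARE stood at 100 FPKM or more. Both groups thus span high and low members, and their ranges overlap.

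Other genes of the same pathways, 86 in 7 lists, were expressed at lower levels than the members, with a median of 30.4 FPKM. Of these 68 reached 10 FPKM and 7 were below 1 FPKM. The translation factor list (eIF2 kinases, eIF2 and eIF2B subunits) had 10 of 12 genes at 10 FPKM or more, led by the eIF2 subunit genes Eif2s2 (106 ± 7.18 FPKM) and Eif2s1 (44.3 ± 2.74 FPKM) and the eIF2B catalytic subunit gene Eif2b5 (38.6 ± 0.0144 FPKM). The other eIF2 kinase genes were Eif2ak1 for the heme sensor (19.1 ± 0.555 FPKM), Eif2ak2 for the viral RNA sensor PKR (14.5 ± 0.644 FPKM) and Eif2ak4 for the amino acid sensor GCN2 (6.59 ± 0.315 FPKM). Eif2ak3 lay between the last 2 of these.

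Of 10 partners of ATF6 and IRE1 5 reached 10 FPKM and 3 were below 1 FPKM. Rtcb, the ligase that joins spliced Xbp1, was at 65.8 ± 0.128 FPKM, the ER stress transducer Creb3l2 at 50.2 ± 3.89 FPKM and Creb3 at 39.0 ± 1.13 FPKM. Creb3l1 and Creb3l4 were below 1 FPKM, and Ern2, an IRE1 paralog of epithelia that make mucus, had no counts. Of 13 further ER folding genes 9 reached 10 FPKM, led by the disulfide isomerase P4hb (430.3 ± 33.4 FPKM), the prolyl isomerase Ppib (201 ± 13.1 FPKM) and the disulfide oxidase Ero1l (66.6 ± 2.55 FPKM). Clgn, the testis calnexin, had no counts. P4hb is thus at the level of Hspa5 and Hsp90b1 on the deposited lengths. With GENCODE exon lengths it was above them, at 382 FPKM against 281 FPKM for Hspa5 and 285 FPKM for Hsp90b1.

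Of 14 further degradation genes 12 reached 10 FPKM. They were led by the extraction ATPase Vcp (219.8 ± 0.494 FPKM) and the lectin Os9 (59.2 ± 5.15 FPKM), while Derl3 was at 0.346 ± 0.0982 FPKM. All 9 translocon and signal peptidase genes reached 10 FPKM, led by Spcs1 (83.7 ± 3.02 FPKM), Sec61a1 (67.8 ± 0.174 FPKM) and Sec61b (65.1 ± 2.99 FPKM). The 10 aminoacyl-tRNA synthetase genes, several of them ATF4 targets, all did so too (median 78.6 FPKM), led by Nars (248 ± 12.1 FPKM), Gars (246 ± 9.27 FPKM) and Aars (121 ± 4.86 FPKM).
Of 18 further ATF4 and stress response targets 13 reached 10 FPKM, led by the translation repressor gene Eif4ebp1 (230.2 ± 10.7 FPKM), the proline synthesis gene Aldh18a1 (77.9 ± 0.140 FPKM) and the amino acid transporter gene Slc7a5 (61.0 ± 0.385 FPKM). The secreted hepatic stress hormone gene Fgf21 had 7 counts in replicate 1 and 2 in replicate 2, and Slc7a3 averaged 0.548 ± 0.167 FPKM. Gdf15, which encodes another secreted stress signal, averaged 42.5 ± 3.39 FPKM. Fgf21 and Gdf15, both known from other settings as ATF4 targets, were therefore far apart in these cells. Gene models differ for some of the leading genes of these lists, so that with GENCODE exon lengths Os9 came to 92.1 FPKM, above its deposited value, while Ppib came to 58.3, Eif2s2 to 39.6, Aars to 57.5 and Eif4ebp1 to 103 FPKM. On those lengths Eif2s1 came to 28.2, Eif2ak1 to 9.38, Sec61a1 to 30.6, Sec61b to 28.3, Spcs1 to 54.5 and Nars to 151 FPKM, and the median over the 86 genes to 22.4 FPKM.

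**Figure D3:**
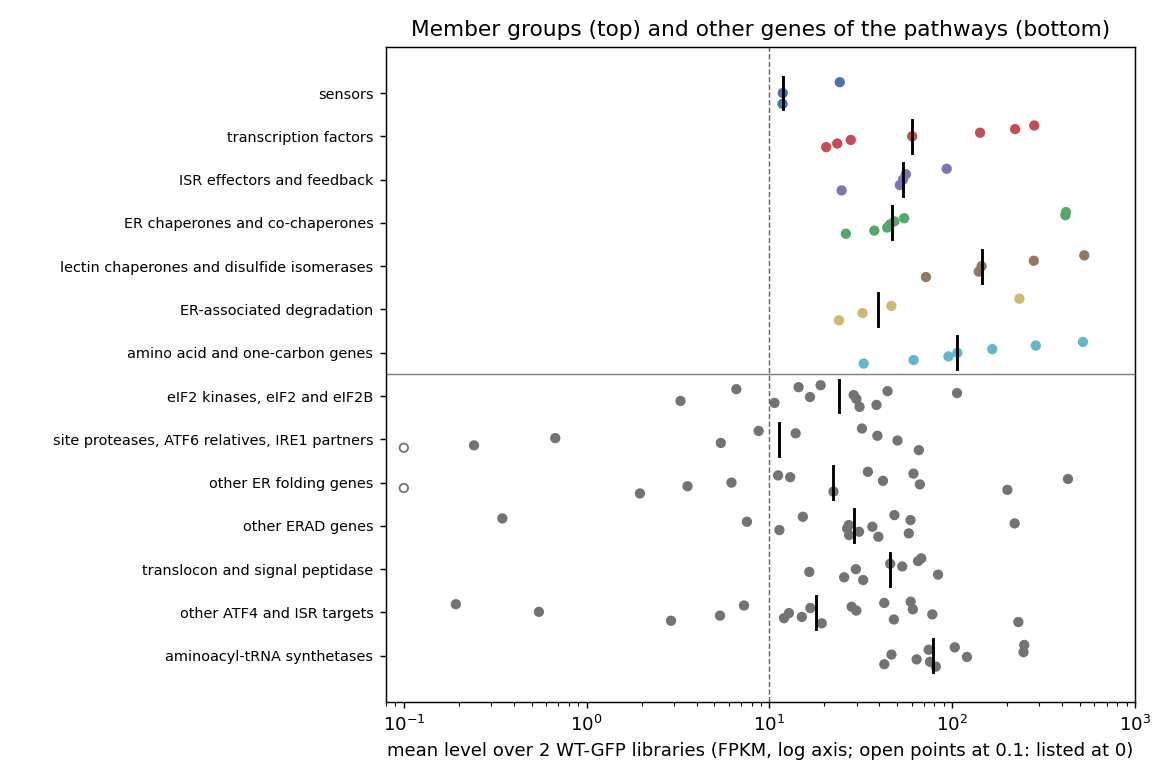
Mean level over the 2 WT-GFP libraries for each gene, in FPKM on a log axis, with the 7 roles of the 39 members in colour above the line and the 7 lists of other pathway genes in grey below it. Black bars are list medians, the dashed line is 10 FPKM, and open points stand for genes listed at 0. No member lies left of the dashed line, whereas 7 other genes lie below 1 FPKM.

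The 2 WT-GFP libraries were then compared gene by gene, which asks how far a member's level differs between replicates and says nothing of conditions. Atf3, Ppp1r15a and Ddit3 were higher in replicate 2 by the widest margins, Asns, Slc3a2, Psat1, Phgdh and Shmt2 were higher there by small ones, and Calr, Pdia6 and Pdia3 were lower. By an exact binomial test on the counts, adjusted over 12302 genes, 18 of 39 members (46.2%) differed, 12 higher and 6 lower in replicate 2. The same test called 14.8% of all tested genes, 8.38% higher and 6.38% lower. The split of higher and lower calls depends on scaling, with 1031 higher and 785 lower genes here, 888 and 918 with TMM factors and 909 and 897 with DESeq2 factors. Members split 10 higher and 7 lower under either alternative. The test calls abundant genes more readily, and among the 5908 genes with a mean count no lower than the lowest member's 651 it called 23.2%, 12.9% higher and 10.3% lower. The members' median count of 2861 lies above that minimum, and the part of abundance in the remaining gap was not tested.

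Atf3 had 620 counts in replicate 1 and 846 in replicate 2, a log2 ratio of replicate 2 to replicate 1 of 0.50 (95% interval 0.35 to 0.66, adjusted p = 2.38e-09, exact binomial test). Ppp1r15a had 1884 and 2491 counts, a log2 ratio of 0.46 (0.37 to 0.55, adjusted p = 2.96e-23, exact binomial test). Ddit3 had 1264 and 1447 counts, a log2 ratio of 0.25 (0.14 to 0.36, adjusted p = 0.000166, exact binomial test). These 3 genes are known as rapidly induced, with short-lived transcripts, and the part of that trait in their differences was not tested.
Ern1 followed with a log2 ratio of 0.21 (0.07 to 0.35, adjusted p = 0.0227, exact binomial test). Calr, with 20389 counts in replicate 1 and 16988 in replicate 2, had the most negative log2 ratio of the members, -0.21 (-0.24 to -0.18, adjusted p = 1.02e-40, exact binomial test). For scale, the SD of the log2 ratio was 0.11 over the 4408 genes with more than 1000 counts. In size 13 members exceeded it, among them Atf3, Ern1 and Creld2, which had fewer counts than that. The share of the 4408 genes beyond their own SD was not counted, so the 13 are not read as a trait of the members. Intervals come from the counts alone, so they cover counting error and no variation between cultures or preparations. The reads carry no molecular identifiers and are not independent molecules, so the intervals may be too narrow even for counting error.

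By role, 5 of the 7 amino acid and one-carbon genes passed the test as higher in replicate 2 and 0 as lower, against 8.38% of all tested genes and 12.9% of the abundant ones called higher. Their median log2 ratio was 0.08, against 0.01 over all tested genes. Asns had the highest ratio of them, 0.16 (adjusted p = 1.59e-08, exact binomial test). The call for Shmt2 (log2 ratio 0.09, adjusted p = 0.0385, exact binomial test) was lost with TMM or DESeq2 scaling, its adjusted p ranging from 0.0353 to 0.0788 over the alternatives.
Of the 5 lectin chaperones and isomerases 3 were lower in replicate 2 and 0 higher (Calr, Pdia3 and Pdia6, median of the role -0.10), against 6.38% of all tested genes and 10.3% of the abundant ones called lower. Hepatocyte markers were lower in replicate 2 as well, 6 of 9 tested with 0 higher and a median log2 ratio of -0.12, among them the secreted protein genes Trf (-0.18) and Fgb (-0.16). The part of that shift in the result was not tested. Pdia4 was also lower with TMM or DESeq2 scaling (adjusted p = 0.0782 by the exact binomial test, 0.0396 to 0.0960 over the alternatives). In the degradation role Herpud1 (-0.12) and Sel1l (-0.12) were lower and Syvn1 (0.15) higher.

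Among the ER chaperones Hspa5 was higher by a log2 ratio of 0.05 (adjusted p = 0.00508) and Hsp90b1 lower by a log2 ratio of -0.08 (adjusted p = 2.04e-06) in the exact binomial test, and the other 6 did not pass it. Atf4, Atf5, Xbp1, Nupr1, Trib3, Chac1, Sesn2 and Ddit4 did not pass it either, with log2 ratios from -0.04 for Xbp1 to 0.07 for Sesn2. Cebpg, with a log2 ratio of 0.13, passed at an adjusted p of 0.0433 by the exact binomial test, which ranged from 0.0397 to 0.0716 over the alternatives. The 3 most variable members thus sit beside Atf4, Trib3 and Chac1, genes of the same branch whose intervals include ratios close to 0.
Of the 8 members with an ERSE 2 were higher and 3 lower in replicate 2, and of the 6 with a CARE 2 were higher and 1 lower. These counts are too small to be read against the 14.8% of all tested genes and 23.2% of abundant genes called in either direction. Among the other pathway genes 21 of 82 tested differed (25.6%), 13 higher and 8 lower. Some of them had fewer counts than the abundant genes, so this share is not set against the 23.2%. Calls in 2 of the lists are given without being read as a result, as the lists are small and the test calls abundant genes more readily. Of the 10 aminoacyl-tRNA synthetase genes 5 were called higher and 2 lower, and of the 9 translocon and signal peptidase genes 0 were called, beside 14.8% of all tested genes. In replicate 1 the synthetase list held 65312 counts and the translocon list 21030. Outside the members, the cystine transporter gene Slc7a11 had 2379 counts in replicate 1 and 3426 in replicate 2 (log2 ratio 0.58, adjusted p = 1.08e-49, exact binomial test).

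**Figure D4:**
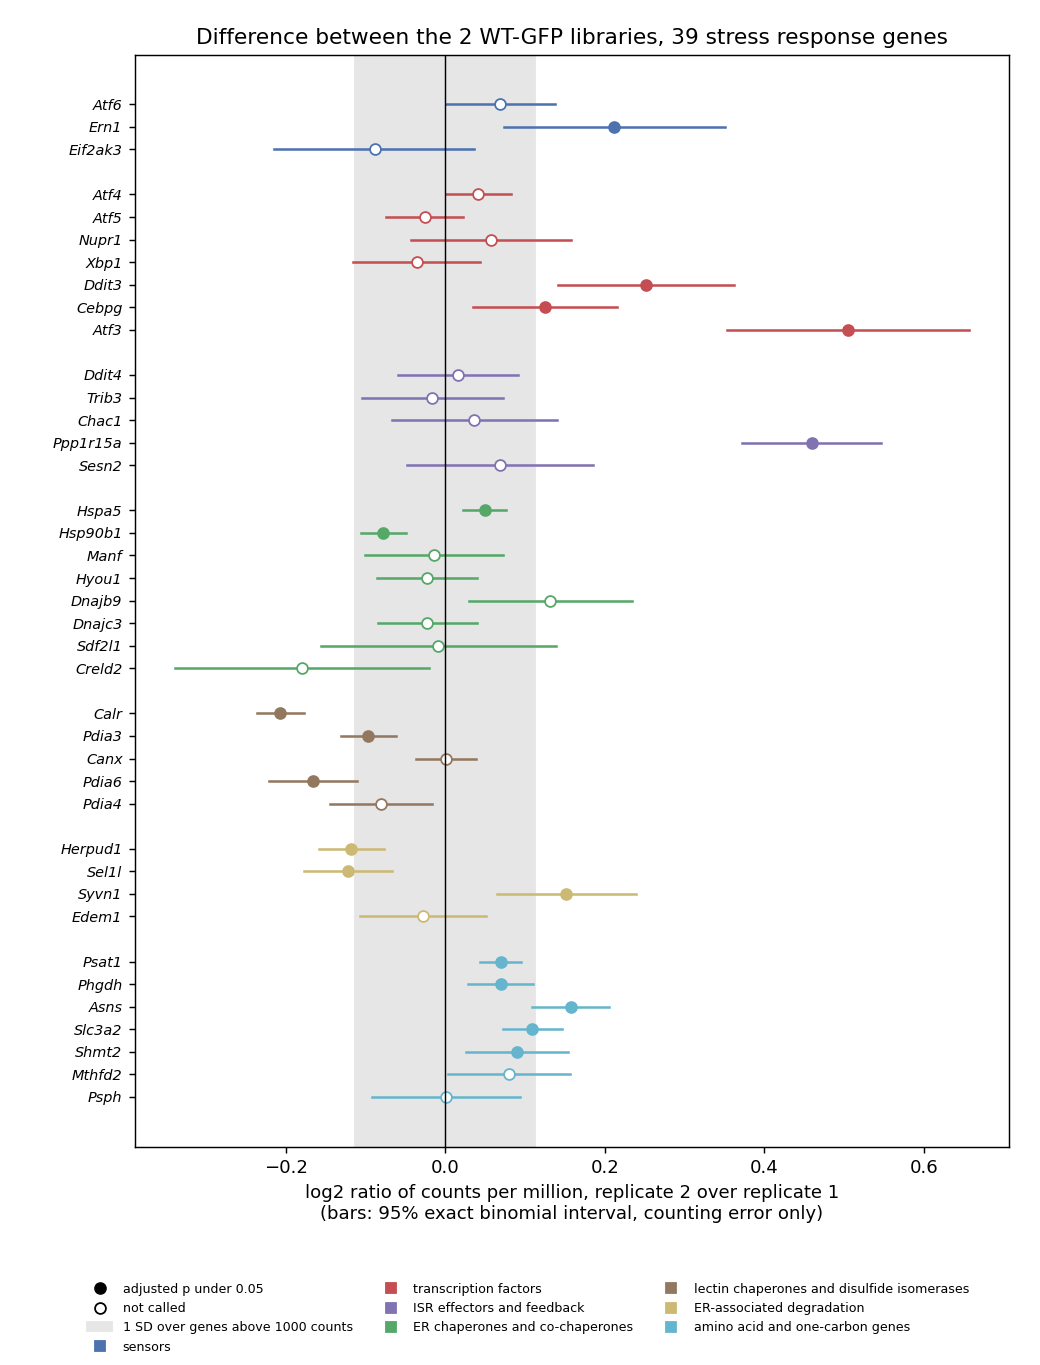
Log2 ratio of CPM (counts scaled to library size), WT-GFP replicate 2 over replicate 1, for each member, ordered by role. Bars are 95% exact binomial intervals for counting error, filled points passed the exact binomial test at an adjusted p of 0.05 over 12302 genes, and the grey band is 1 SD (0.11) over genes above 1000 counts. Atf3 (0.50) and Ppp1r15a (0.46) lie farthest right and Calr (-0.21) farthest left.

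Some levels carry an uncertainty of gene assignment. The libraries were made with a stranded kit, but the sources used here do not give the strand setting of the counting. Expressed genes overlap Atf5 (Nup62), Ddit3 (Mars), Syvn1 (Mrpl49) and Psph (Cct6a) on the opposite strand and Manf (Rbm15b) on the same strand. Calr and Phgdh each have an annotated pseudogene named after them, and the sources used here do not say how shared reads were treated.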

How the data were processed

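Stranded mRNA libraries were sequenced. The authors deposited a table of raw counts with 9 columns and, per the file headers, FPKM for 2 libraries (WT-GFP replicates 1 and 2), whose file numbers tie 2 count columns to samples. The other 7 columns were not used. HISAT2 2.2.1.0, mm10 and hg38 are listed in the submitters' processing notes with no role; the sources used here give no counter, annotation or FPKM tool. The deposited FPKM equal counts over library total and a whole gene length (within 0.01 bases for all 15545 symbols with a count), so they are not a second measurement.

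Totals were 18532457 and 17821682 counts; a count of 0 allows 3 counts (0.162 and 0.168 CPM). Levels are means ± SD of FPKM. For each gene averaging 10 counts or more, the 2 counts were compared by an exact binomial test (two-sided, SciPy 1.17.1) given the totals, and p-values were adjusted by Benjamini-Hochberg (threshold 0.05); log2 ratios add 0.5 to each count. On counts simulated for 12231 genes with counting (Poisson) error only, the test called 95% of 100 genes changed 2-fold. It called 66% of 100 changed 1.25-fold and 0.0582% of unchanged genes. The 2 real libraries differed in 14.8% of tested genes, so the simulation does not give the rate of false calls among replicates. Scaling factors came from edgeR 4.0.16 (TMM) and DESeq2 1.42.0. Positions and exon lengths are GENCODE M21 (GRCm38, the assembly of mm10), and promoters RefSeq.

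Members, lists, motifs and tests were chosen with earlier results of these data known. Every member is named; of each other list the 3 highest genes, plus those below 1 FPKM; 1 gene that the rule would name is not reported here. Gdf15, Slc7a11 and the eIF2 kinase genes were named after their values were seen. The 4 symbols Ero1a, Ero1b, Ufd1 and Selenos were matched through older symbols.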

Additional observations from a re-analysis of the deposited data

How the results depend on the processing

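The members' median level of 55.8 FPKM was 43.6 FPKM with GENCODE exon lengths, where the gene models differ in length, and 56.1 to 59.7 FPKM when either replicate was left out; TMM scaling gave 55.8 FPKM. The count of members at 10 FPKM or more was 39 when either replicate was left out and at a threshold of 5 FPKM, and 37 at 20 FPKM and with GENCODE exon lengths. The number of members that differed between the libraries was 18, and 17 to 18 with TMM or DESeq2 scaling, no filter or a minimum of 50 counts. Of 234 values for single members under these settings and pseudocounts of 1 and 5, 227 kept their side of the threshold, 5 lost it and 2 gained it (Cebpg, Shmt2 and Pdia4), and no called ratio changed sign. The pseudocount enters the log2 ratio and not the test. The 39 values at each pseudocount therefore could not change side, and they say nothing of stability. ERSE matches in member promoters were 8 when exact and 13 (36.1%) with 1 mismatch allowed, which 2.04% of all symbols with a window then held. The planned count of ER retention signals was not run, as no protein sequences were used here. No paired analysis was possible because the 2 usable libraries belong to 1 group. The lowest member count was 598, and each SD rests on n = 2.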
